A study of Saccharomyces cerevisiae with 6 samples.

Results

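The 40 genes described here encode nuclear subunits of the mitochondrial respiratory chain and of the ATP synthase, but not all of them. *COX5A* and *COX5B* of complex IV, for example, are described apart. The 40 genes were chosen by name from a list of the complexes, with earlier results of these data known. They fall into 3 NADH dehydrogenases, 4 subunits of complex II, 9 of complex III, 7 of complex IV and 17 genes of the ATP synthase, the last including its inhibitor and 2 associated factors. The Agilent yeast array held 1 probe for each of 6256 genes, and all 40 genes were among them. RNA came from the control strain, YΔG/XK/XI, and from its *PHO13*-deleted derivative, YΔGP/XK/XI, after 9 h in medium with 50 g/L xylose, with 3 arrays per strain. Both strains derive from the haploid laboratory strain YPH499. Both lack *GRE3*, the aldose reductase gene, overexpress the xylulokinase gene *XKS1* from the *TDH3* promoter, and carry multiple integrated copies of the *Orpinomyces* xylose isomerase gene *xylA* behind the *PGK1* promoter. YΔGP/XK/XI was made from YΔG/XK/XI by replacing *PHO13* with *KanMX*, so that each strain is a single line, and the cultures fermented in closed bottles with limited oxygen. The labels number the replicates as runs and do not say whether these were separate cultures, so p-values measure only the spread between these samples.

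Respiration in *Saccharomyces cerevisiae* starts without the large proton-pumping complex I of most eukaryotes. In its place, single-polypeptide NADH dehydrogenases pass electrons from NADH to ubiquinone, Ndi1p on the matrix side of the inner membrane and Nde1p and Nde2p on the outer side, where they use cytosolic NADH. Complex II brings in electrons from succinate, complex III passes them from ubiquinol to cytochrome c, and complex IV passes them to oxygen. The ATP synthase uses the proton gradient built by complexes III and IV. Yeast cells reduce the transcription of many of these genes on glucose, and the Hap activator complex promotes their transcription during respiratory growth.

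The signal of a gene is given as the log2 intensity of its probe minus the 75th percentile of the array, so that a value describes a transcript relative to the rest of the array and not the amount per cell. In these bulk samples fewer cells with a transcript and less of it per cell cannot be told apart. *PHO13* had signals of -0.80, -0.89 and -1.07 on the YΔG/XK/XI arrays and of -9.34, -8.59 and -8.30 on the YΔGP/XK/XI arrays, and it was not well above background in the latter, where the bound was at least 82.4-fold lower. *GRE3* was not well above background on any of the 6 arrays, and *XKS1* was bright on all 6, with means of 4.61 and 4.16 (lower in YΔGP/XK/XI, adjusted p = 0.0112, limma). The probes of the 40 genes were well above background on every array. Their standard errors (median 0.09 on the log2 scale) were close to the median of 0.0878 over all genes. Replicates 1 and 2 of both strains shared slide 1 and replicate 3 of both shared slide 2, which was the dimmer of the slides, with 75th percentiles of 4631 and 3782 intensity units against 5574 to 7632. The number of arrays limits the precision of each value.

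Of the 40 genes, 8 were higher and 2 were lower in YΔGP/XK/XI at an adjusted p under 0.05 (limma, Benjamini-Hochberg over all genes). Over the whole array 29.6% of the genes passed this threshold, 16.5% of them higher and 13.1% lower as shares of all genes tested. The 25.0% of respiratory genes that passed is therefore near the share over all genes and is no result about the group as a whole. By complex, 3 of 4 genes in complex II (75%) and 4 of 17 in the ATP synthase (23.5%) were higher, beside 16.5% of all genes. In complex III 1 of 9 (11.1%) was lower, beside 13.1%. Complex IV had 0 of 7 that passed, and the NADH dehydrogenases gave 1 higher and 1 lower. The shares of the ATP synthase and complex III are near those of all genes and are no result about these complexes. With an array left out complex II had 1 to 3 higher genes and complex III had 0 lower. The 8 genes that rose were *NDE1*, *SDH2*, *SDH3*, *SDH4*, *ATP3*, *ATP7*, *ATP15* and *ATP19*, and the 2 that fell were *NDE2* and *CYT1*. In 14 of the 40 genes, or 35.0%, every array of one strain lay on the same side of the other strain's arrays, against 46.6% of all genes. Of the 40 estimates 31 (77.5%) lay above 0, beside 51.4% of all genes. The median log2 fold change was 0.12 over the 40 genes and 0.0092 over all genes. With the median of each array in place of its 75th percentile these medians were 0.064 and -0.049, 25 of the 40 estimates lay above 0, and 7 of the 10 genes still passed. The same scaling turned the split of all called genes from 1033 higher and 819 lower to 846 and 1126. *SDH3*, *ATP3* and *ATP15* were the genes that no longer passed there (adjusted p = 0.095, 0.127 and 0.0613, limma). With single arrays left out the 8 higher genes became 4 (without replicate 1 of either strain), 5 (without replicate 2 of YΔG/XK/XI or replicate 3 of YΔGP/XK/XI), 7 (without replicate 2 of YΔGP/XK/XI) and 10 (without replicate 3 of YΔG/XK/XI), while 1 was lower each time.

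**Figure D1:**
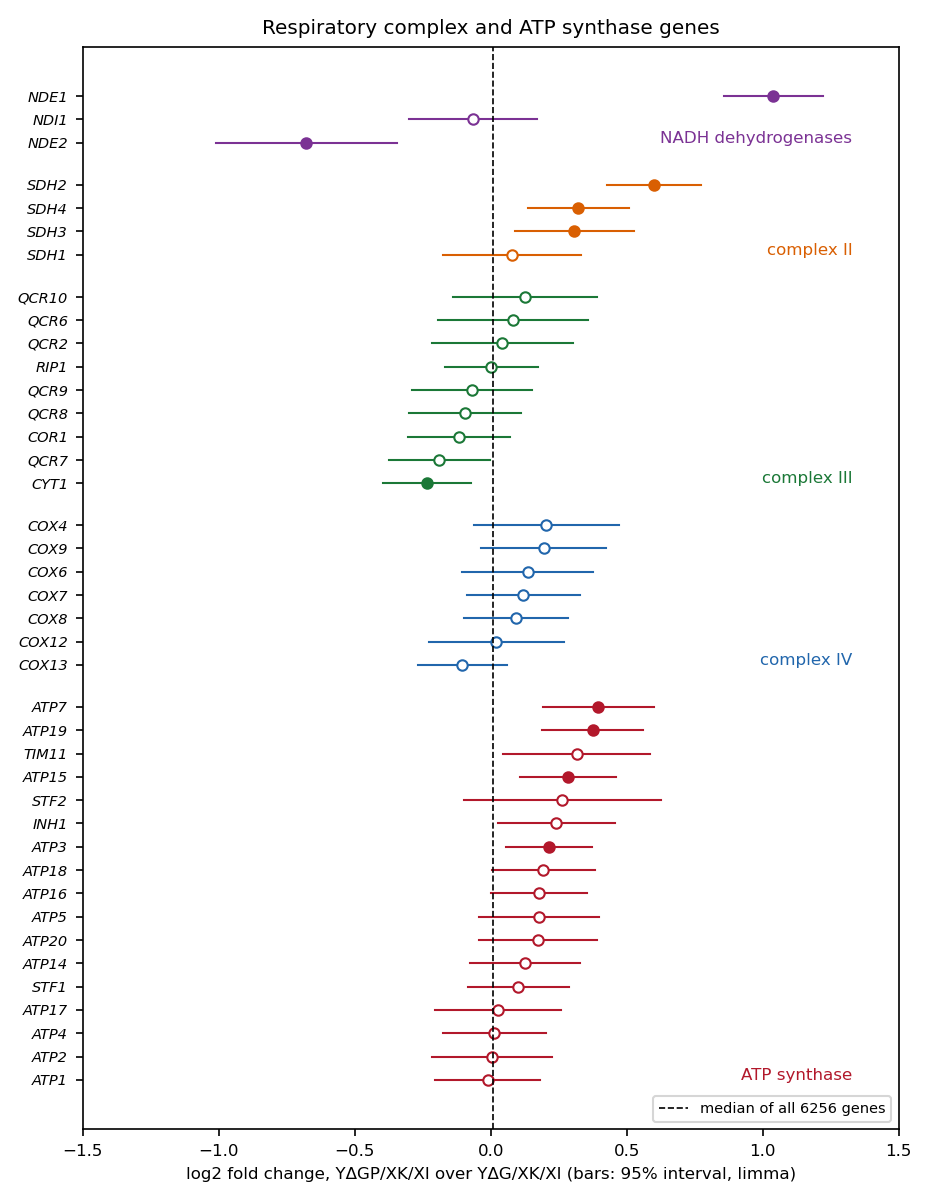
Log2 fold change of YΔGP/XK/XI over YΔG/XK/XI (x axis) for each of the 40 genes (y axis), ordered within its complex. Points are limma estimates from 3 arrays per strain, bars are 95% intervals, filled points passed an adjusted p under 0.05, and the dashed line is the median of all 6256 genes; the 4 genes of complex II and 16 of the 17 genes of the ATP synthase have estimates above 0, while those of complex III lie on both sides of 0.

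The NADH dehydrogenases held both the highest and the lowest log2 fold change among the 40 genes. *NDE1* (YMR145C) gave signals of 1.15, 1.15 and 1.15 in YΔG/XK/XI and of 2.33, 2.14 and 2.11 in YΔGP/XK/XI. Every YΔGP/XK/XI array lay above every YΔG/XK/XI array by a wide margin, and the 3 YΔG/XK/XI arrays hardly differed (SD 0.0045). The transcript rose 2.06-fold (log2 fold change 1.04, standard error 0.08, adjusted p = 6.89e-05, limma), and 98.5% of all genes had a smaller log2 fold change. *NDE2* (YDL085W), its paralog on the same face of the membrane, gave -0.88, -1.20 and -0.60 in YΔG/XK/XI and -1.54, -1.71 and -1.46 in YΔGP/XK/XI. It was lower in each YΔGP/XK/XI array than in any YΔG/XK/XI array, and fell by 0.68 on the log2 scale (standard error 0.14, adjusted p = 0.00964), to 0.625 times its level. *NDI1* (YML120C), for the enzyme that faces the matrix, gave 1.12, 1.13 and 1.28 against 1.21, 0.91 and 1.23, with overlapping arrays. Its log2 fold change was -0.06, and the 95% interval ran from -0.30 to 0.17 (adjusted p = 0.664).

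Since both probes sit on the same array, the difference between *NDE1* and *NDE2* does not depend on how the arrays were scaled. It was 2.02, 2.35 and 1.76 in YΔG/XK/XI and 3.87, 3.84 and 3.57 in YΔGP/XK/XI, a change of 1.72 on the log2 scale. An exact two-sided permutation test over the 6 arrays gave p = 0.1, which is the smallest value that 3 arrays against 3 allow. *NDE1* and *NDE2* have the highest and lowest log2 fold changes of the 40 genes on the same arrays, so the difference is no separate support. The difference between *NDE1* and *NDI1* changed by 1.104 in the same manner (exact permutation p = 0.1). *NDE1* and *NDE2* passed the threshold in each of the 18 alternative fits, with log2 fold changes of 0.97 to 1.08 and of -0.83 to -0.53. Whether the probes of this pair cross-hybridise was not tested.

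In complex II 3 of the 4 genes rose, and the median log2 fold change of the complex was 0.31. *SDH2* (YLL041C), which encodes the iron-sulfur subunit, gave 0.83, 0.77 and 0.88 in YΔG/XK/XI and 1.37, 1.52 and 1.39 in YΔGP/XK/XI. The strains were well separated, and the transcript rose 1.52-fold (log2 fold change 0.60, standard error 0.08, adjusted p = 0.000823, limma). The membrane anchor subunits rose less. *SDH4* (YDR178W) gave 1.24, 1.24 and 1.45 against 1.62, 1.61 and 1.66, a 1.25-fold rise (log2 fold change 0.32, standard error 0.08, adjusted p = 0.0185). For *SDH3* (YKL141W), the cytochrome b anchor, the signals were 1.06, 1.01 and 1.32 against 1.44, 1.39 and 1.48, a 1.24-fold rise (log2 fold change 0.31, standard error 0.10, adjusted p = 0.042). In both anchor genes replicate 3 of YΔG/XK/XI lay nearest to the YΔGP/XK/XI arrays without reaching them.

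*SDH1* (YKL148C), which encodes the flavoprotein that oxidises succinate and forms the catalytic part together with Sdh2p, did not pass. Its signals were 2.41, 2.45 and 2.70 in YΔG/XK/XI and 2.41, 2.70 and 2.69 in YΔGP/XK/XI, and the arrays of the strains overlapped. Its estimate was 0.08 on the log2 scale, within a 95% interval from -0.18 to 0.33 (adjusted p = 0.621, limma). That interval contains the estimates of *SDH3* (0.31) and *SDH4* (0.32), so a difference of *SDH1* from these genes is not shown. Within an array, *SDH2* minus *SDH1* was -1.59, -1.67 and -1.82 in YΔG/XK/XI and -1.04, -1.18 and -1.29 in YΔGP/XK/XI. That is a change of 0.52 on the log2 scale, free of the scaling, with no overlap between the strains (exact permutation p = 0.1, the smallest possible). These genes have the highest and lowest estimates of the complex on the same arrays, so the difference is no separate support. *SDH2* passed in all 18 alternative fits, *SDH4* in 14 and *SDH3* in 10. *SDH3* no longer passed without replicate 1 or 2 of YΔG/XK/XI or without any single array of YΔGP/XK/XI (adjusted p from 0.0591 to 0.139), and *SDH4* without replicate 1 or 2 of YΔG/XK/XI or replicate 1 or 3 of YΔGP/XK/XI (0.0528 to 0.0782). Only *SDH2* of this complex still passed without replicate 1 or 2 of YΔG/XK/XI or without replicate 1 or 3 of YΔGP/XK/XI.

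**Figure D2:**
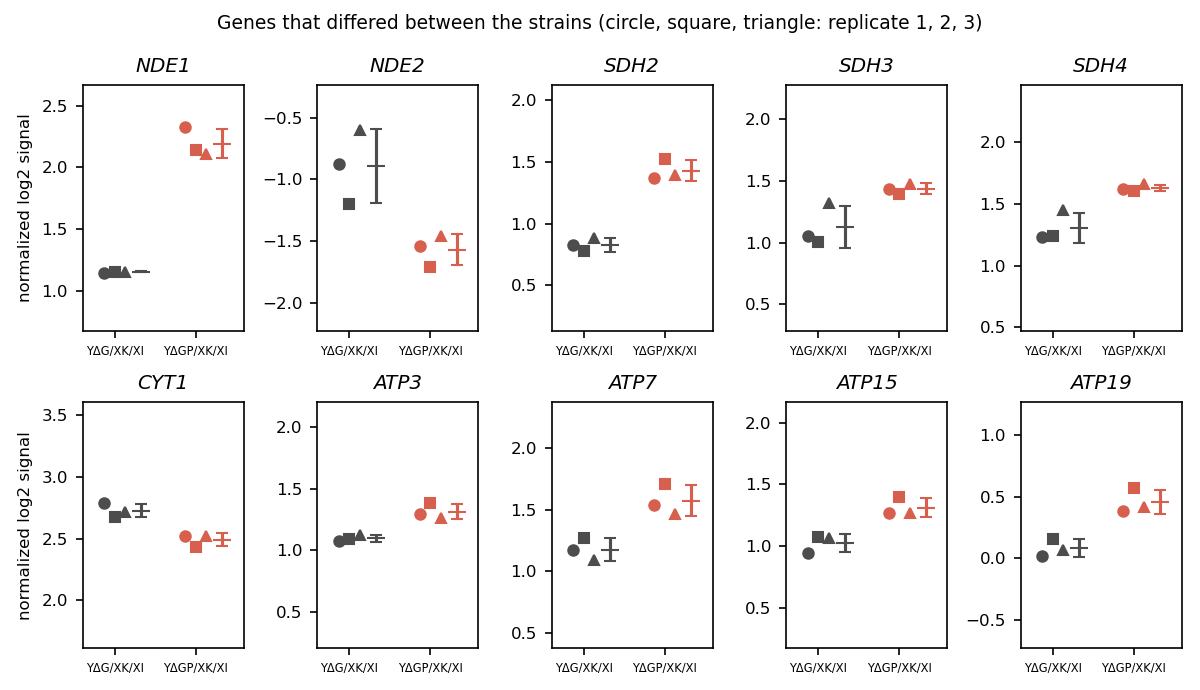
Normalized log2 signal (y axis, log2 intensity minus the 75th percentile of the array) of the 10 genes that passed an adjusted p under 0.05, for the arrays of YΔG/XK/XI (grey) and YΔGP/XK/XI (red). Symbols mark the replicates, bars to their right are the mean ± SD (n = 3), and each panel spans the same range of 2 log2 units, so that the 1.04 step of *NDE1* can be set beside the 0.22 step of *ATP3*; the arrays of the strains overlap in no panel.

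Complex III showed no common shift, with a median log2 fold change of -0.07 and estimates from -0.24 to 0.13. *CYT1* (YOR065W), which encodes cytochrome c1, was the gene that passed the threshold. It gave 2.79, 2.68 and 2.72 in YΔG/XK/XI and 2.52, 2.43 and 2.53 in YΔGP/XK/XI, so that each YΔGP/XK/XI array was lower. The transcript fell by 0.24 on the log2 scale (standard error 0.07, adjusted p = 0.0379, limma), to 0.85 times its level. This call was the least secure of the pair that fell, because leaving out any single array of the 6 ended it (adjusted p from 0.0625 to 0.139), and so did the use of the slide 1 arrays alone (adjusted p = 0.0926).

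*QCR7* (YDR529C), a small subunit needed for the assembly of the complex, was next, with 3.52, 3.61 and 3.72 against 3.42, 3.36 and 3.51. The arrays did not overlap, but the log2 fold change of -0.19 did not pass (adjusted p = 0.115, 95% interval -0.38 to -0.0022). *COR1* (YBL045C), for a core subunit, gave 3.17, 2.98 and 3.20 against 3.04, 2.97 and 2.996 (log2 fold change -0.12, adjusted p = 0.306). *RIP1* (YEL024W), for the Rieske iron-sulfur protein, had nearly equal means of 0.82 and 0.82, and its 95% interval was -0.17 to 0.17. *QCR10* (YHR001W-A) had the highest estimate of the complex, 0.13, with an interval from -0.14 to 0.39. The log2 fold changes of *QCR2*, *QCR6*, *QCR8* and *QCR9* were 0.04, 0.08, -0.10 and -0.07, and their arrays overlapped. Thus 4 estimates of complex III were above 0 and 5 were below it. With median scaling *QCR2* and *RIP1* changed sign, and the median of the complex was -0.13.

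Complex IV had 0 of its 7 genes in this set past the threshold with limma, 0 at an unadjusted p under 0.05, and arrays that overlapped in each gene. Over all 6256 genes 29.6% passed, 2636 had an unadjusted p under 0.05, and 46.6% had arrays that did not overlap. Whether these 7 genes differ from all genes in this was not tested. The median log2 fold change was 0.12, and 6 of the 7 estimates were above 0 (85.7%, beside 51.4% of all genes). *COX4* (YGL187C), for a conserved core-associated subunit, had the highest, 0.20 (95% interval -0.06 to 0.47, adjusted p = 0.214). It gave -0.99, -1.04 and -0.78 in YΔG/XK/XI and -0.61, -0.96 and -0.62 in YΔGP/XK/XI, where replicate 2 lay among the YΔG/XK/XI arrays. Without that array the log2 fold change of *COX4* was 0.32 and it passed (adjusted p = 0.0457). *COX9* (YDL067C) followed with 0.19 (0.16, 0.28 and 0.43 against 0.46, 0.37 and 0.64, adjusted p = 0.173), and its interval reached from -0.03 to 0.42. Those of *COX6*, *COX7*, *COX8* and *COX12* were 0.14, 0.12, 0.09 and 0.02, and *COX12* turned to -0.04 with median scaling. *COX13* (YGL191W) was the gene of the complex below 0, at -0.10, with 3.11, 3.17 and 3.13 against 3.11, 2.98 and 3.01 (adjusted p = 0.298). Over the 7 genes the 95% intervals of the single genes extended from -0.27 to 0.47, and no interval was computed for the complex.

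The 17 genes of the ATP synthase had a median log2 fold change of 0.18, with 16 estimates above 0 (94.1%, beside 51.4% of all genes). With median scaling the median was 0.12, and *ATP2*, *ATP4* and *ATP17* also lay below 0. Of these genes 4 (23.5%) were higher, against 16.5% of all genes, and 0 were lower against 13.1%. With single arrays left out 2, 3 or 6 genes were higher: 2 without replicate 1 of either strain and 6 without replicate 3 of YΔG/XK/XI. In the F1 sector, which carries the catalytic sites, 2 of the 5 genes rose. *ATP1* (YBL099W) and *ATP2* (YJR121W), for the alpha and beta subunits that make up the catalytic ring, had log2 fold changes of -0.01 and 0.0042, with intervals from -0.20 to 0.18 and from -0.22 to 0.22. Their signs are not fixed, since quantile normalization gave 0.09 for *ATP1*, and median scaling gave -0.05 for *ATP2*. *ATP1* gave 3.54, 3.46 and 3.71 in YΔG/XK/XI and 3.60, 3.57 and 3.51 in YΔGP/XK/XI, and for *ATP2* the arrays overlapped in the same way.

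Of the 3 subunits of the central stalk, 2 were higher. *ATP15* (YPL271W), for the epsilon subunit, gave 0.94, 1.08 and 1.07 in YΔG/XK/XI and 1.27, 1.40 and 1.27 in YΔGP/XK/XI, a 1.22-fold rise (log2 fold change 0.28, standard error 0.08, adjusted p = 0.025, limma). *ATP3* (YBR039W), for the gamma subunit, gave 1.08, 1.09 and 1.13 against 1.29, 1.38 and 1.27, a 1.16-fold rise (log2 fold change 0.22, standard error 0.07, adjusted p = 0.0477). *ATP16* (YDL004W), for the delta subunit, gave 0.35, 0.38 and 0.54 against 0.57, 0.61 and 0.62. The arrays of *ATP16* did not overlap, and its log2 fold change of 0.18 did not pass (adjusted p = 0.116). It did so with replicate 3 of YΔG/XK/XI left out, at 0.24 (adjusted p = 0.0496). *ATP15* passed in 12 of the 18 alternative fits and *ATP3* in 7. *ATP3* lost its call without any single array (adjusted p from 0.0632 to 0.145), and *ATP15* lost it without replicate 1 of YΔG/XK/XI or replicate 1 or 2 of YΔGP/XK/XI (0.0535 to 0.103).

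The stator, which holds the F1 sector still against the rotor, contained the largest rise of the enzyme. *ATP7* (YKL016C), for subunit d, gave 1.17, 1.27 and 1.09 in YΔG/XK/XI and 1.54, 1.71 and 1.47 in YΔGP/XK/XI. The lowest YΔGP/XK/XI array (1.47) lay above the highest YΔG/XK/XI array (1.27). The transcript rose 1.32-fold (log2 fold change 0.40, standard error 0.09, adjusted p = 0.0122, limma). The other 3 stator genes did not pass. *ATP4* (YPL078C), for subunit b, had 0.01 with an interval from -0.18 to 0.20, *ATP5* (YDR298C), for the subunit that confers sensitivity to oligomycin, had 0.18 (adjusted p = 0.192), and *ATP14* (YLR295C), for subunit h, had 0.13 (adjusted p = 0.308). *ATP4* changed sign with median scaling, to -0.05.

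Among the small membrane subunits of the Fo sector, *ATP19* (YOL077W-A), for subunit k, gave 0.02, 0.16 and 0.06 in YΔG/XK/XI and 0.38, 0.57 and 0.42 in YΔGP/XK/XI. It rose 1.30-fold (log2 fold change 0.38, standard error 0.08, adjusted p = 0.0101, limma), and the arrays did not overlap. *TIM11* (YDR322C-A), for subunit e, which takes part with subunits g and k in the pairing of ATP synthases, had 0.32 and did not pass (adjusted p = 0.0764). Its signals of -0.74, -0.73 and -0.52 in YΔG/XK/XI met those of YΔGP/XK/XI at replicate 2 (-0.19, -0.59 and -0.26), and without that array the log2 fold change was 0.44 (adjusted p = 0.0139). *TIM11* also passed with a block for the slide (adjusted p = 0.0485) and with an intensity trend in the variance (adjusted p = 0.0426). *ATP20* (YPR020W), for subunit g, had 0.17 (adjusted p = 0.198). *ATP18* (YML081C-A), for subunit i, gave 1.66, 1.81 and 1.76 against 2.05, 1.85 and 1.91, and its log2 fold change of 0.19 did not pass (adjusted p = 0.114). *ATP17* (YDR377W), for subunit f, had 0.03, which became -0.03 with median scaling. *ATP7* and *ATP19* passed in all 18 alternative fits.

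The inhibitor and the associated factors did not pass with all arrays and no block. *INH1* (YDL181W), which encodes the small protein that blocks ATP hydrolysis by the enzyme when the gradient collapses, gave -0.83, -0.78 and -0.53 in YΔG/XK/XI and -0.44, -0.51 and -0.46 in YΔGP/XK/XI. The arrays just failed to overlap, and the estimate of 0.24 on the log2 scale had a standard error of 0.09 and did not pass (adjusted p = 0.0847, limma). With replicate 3 of YΔG/XK/XI left out *INH1* had 0.34 and passed (adjusted p = 0.0163). A block for the slide gave a call too (adjusted p = 0.0453), and so did the slide 1 arrays alone (adjusted p = 0.0407). Its paralog *STF1* (YDL130W-A) gave 2.39, 2.43 and 2.60 against 2.52, 2.58 and 2.63, a log2 fold change of 0.10 (95% interval -0.08 to 0.29). The difference between *INH1* and *STF1* within an array changed by 0.14 (exact permutation p = 0.1). *STF2* (YGR008C), named as a stabilising factor of the enzyme, gave 2.86, 2.90 and 3.44 against 3.21, 3.27 and 3.51. Its standard error of 0.16 was the largest of the 40 genes, and its log2 fold change was 0.26 (adjusted p = 0.238), and with replicate 3 of YΔG/XK/XI left out it was 0.45 and passed (adjusted p = 0.02). *STF2* also passed with a block for the slide (adjusted p = 0.0366) and on the slide 1 arrays alone (adjusted p = 0.0303).

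The genes of the complexes also varied together within a strain. Replicate 3 of YΔG/XK/XI had the highest signal of the 3 YΔG/XK/XI arrays in 32 of the 40 genes, or 80.0%, against 39.5% of all genes. It was the only YΔG/XK/XI array on slide 2, so the sample and the slide cannot be told apart here. Replicate 2 of YΔGP/XK/XI was the lowest of its strain in 25 of the 40 genes, or 62.5%, against 42.1% of all genes. This held in 14 of the 16 genes of complexes III and IV (87.5%) and in 7 of the 17 genes of the ATP synthase (41.2%). Within the ATP synthase it held in 0 of the 5 F1 genes, 2 of the 4 stator genes and 4 of the 5 Fo membrane genes. Among the inhibitor and associated factors it held in 1 of 3. Relative to each gene's average in YΔG/XK/XI, the median gene of complex III stood at -0.05, -0.05 and 0.10 in YΔG/XK/XI and at 0.05, -0.17 and -0.05 in YΔGP/XK/XI. Complex II stood at -0.07, -0.07 and 0.16 against 0.31, 0.28 and 0.35, with no overlap. The ATP synthase gave -0.07, -0.04 and 0.12 against 0.20, 0.11 and 0.20, so that replicate 3 of YΔG/XK/XI lay above replicate 2 of YΔGP/XK/XI. For complex IV the values were -0.06, -0.02 and 0.08 against 0.17, -0.03 and 0.16.

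Differences between complexes within an array are free of the scaling. The median of complex II minus that of complex III was -0.02, -0.02 and 0.06 in YΔG/XK/XI and 0.26, 0.46 and 0.40 in YΔGP/XK/XI, and that of the ATP synthase minus complex III was -0.02, 0.0093 and 0.02 against 0.15, 0.28 and 0.25. Complex IV minus complex III gave -0.0022, 0.03 and -0.02 against 0.12, 0.15 and 0.21. In each of these differences the lowest YΔGP/XK/XI array lay above the highest YΔG/XK/XI array. These values describe medians over a few genes and carry no test. Without replicate 2 of YΔGP/XK/XI the median log2 fold change of complex III was 0.0062 and that of the NADH dehydrogenases was 0.04, where all arrays gave -0.07 and -0.06.

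**Figure D3:**
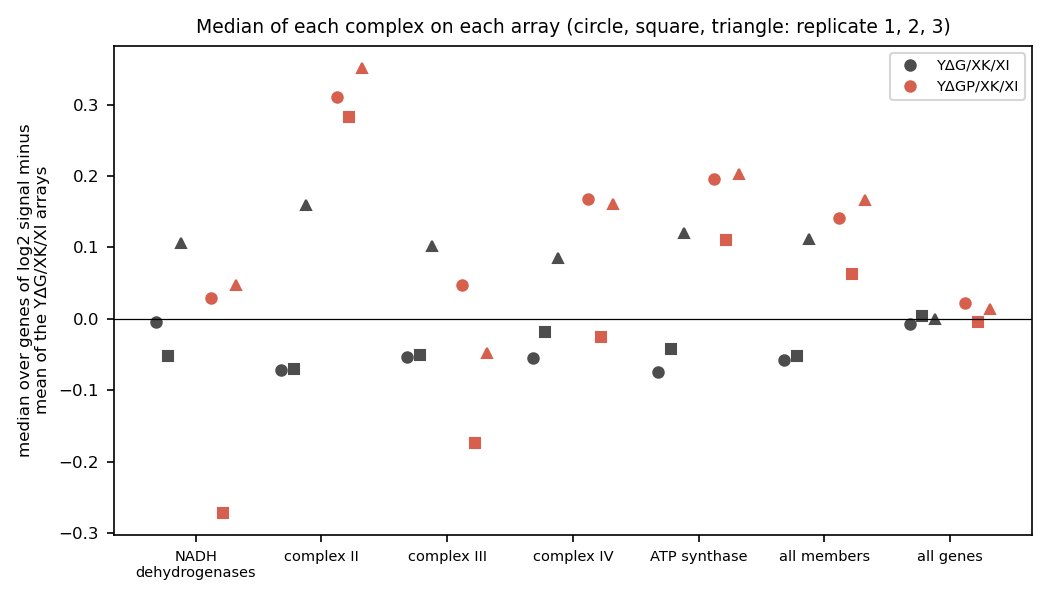
Median over the genes of each complex of the log2 signal minus the gene's average in YΔG/XK/XI (y axis, log2 units), with 1 point per array for YΔG/XK/XI (grey) and YΔGP/XK/XI (red). Symbols mark the replicates; the points of complex II do not overlap between the strains, replicate 3 of YΔG/XK/XI (grey triangles) is the highest of its strain in each complex, and the median of all genes stays within about 0.02 of 0.

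The slides gave different sizes. On slide 1, which held 2 arrays per strain, the median log2 fold change was 0.38 in complex II and 0.22 in the ATP synthase, and on slide 2, with 1 array per strain, it was 0.18 and 0.09. The signed log2 fold change was higher on slide 1 for 32 of the 40 genes, a count that includes genes that fell less there, such as *NDE2*. The sign was the same on both slides for 30 of the 40 genes. Over all 6256 genes these counts were 3106 and 5092. For *NDE1* the slides gave 1.08 and 0.96, for *SDH2* 0.65 and 0.51, for *ATP7* 0.41 and 0.38, and for *ATP19* 0.39 and 0.35. *NDE2* was lower by more on slide 2 (-0.59 on slide 1 and -0.86 on slide 2). The log2 fold changes of *SDH3* were 0.38 and 0.16, and those of *ATP1* were 0.09 and -0.20. Slide 2 has 1 array per strain, so its values have no replicate check. The part of the slide in these differences was not tested.

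Beyond the 40 genes, the array held 118 of 121 listed genes for other steps of the same pathway, and 23 of them (19.5%) were higher and 9 (7.63%) lower in YΔGP/XK/XI, beside 16.5% and 13.1% of all genes. The 23 higher genes became 13 without replicate 1 of YΔG/XK/XI, 14 without replicate 1 of YΔGP/XK/XI and 15 without replicate 2 of YΔG/XK/XI. With median scaling they became 17, and with an intensity trend in the variance 29. Blocks for the replicate number and for the slide gave 31 and 32. The 9 lower genes became 5 without replicate 1 of YΔG/XK/XI or on slide 1 alone, and 11 with median scaling. The 7 subunits encoded by mitochondrial DNA were not well above background on any array and give no fold change. The list of other enzymes that feed electrons into the chain held 3 genes, and these 3 were lower. *GUT2* (YIL155C), the mitochondrial glycerol-3-phosphate dehydrogenase, gave 1.51, 0.99 and 1.39 in YΔG/XK/XI and 0.80, 0.58 and 0.68 in YΔGP/XK/XI (log2 fold change -0.61, standard error 0.13, adjusted p = 0.011, limma). *DLD1* (YDL174C), the D-lactate dehydrogenase, gave 3.43, 3.23 and 3.60 against 2.80, 2.52 and 2.94 (-0.67, adjusted p = 0.00617). *CYB2* (YML054C), the L-lactate cytochrome c oxidoreductase, gave 2.94, 2.68 and 2.85 against 2.40, 1.81 and 2.36 (-0.63, adjusted p = 0.0172). Their arrays did not overlap, and they moved in the direction of *NDE2* and against that of *NDE1*.

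Paralogs and alternative forms of the subunits mostly did not pass. Of the succinate dehydrogenase paralogs, *SDH9* (YJL045W), similar to *SDH1*, rose by 0.52 on the log2 scale (-3.28, -3.43 and -3.11 against -2.75, -2.60 and -2.90, adjusted p = 0.00831, limma). *SHH3* and *SHH4* had 0.34 and 0.14 (adjusted p = 0.183 and 0.476). Neither of the alternative forms of subunit V of complex IV passed (*COX5A* 0.07 and *COX5B* -0.03), and neither did the cytochrome c genes *CYC1* and *CYC7* (-0.03 and -0.17). *CYT2*, for the enzyme that attaches heme to cytochrome c1, rose by 0.33 (adjusted p = 0.0168), while *CYT1* itself was lower.

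Of the assembly factors, those of complex IV held most of the calls. In that list 13 of the 32 genes measured were higher (40.6%) and 2 were lower (6.25%), beside 16.5% and 13.1% of all genes. The median log2 fold change of the list was 0.19. How the counts changed with the processing is given above for all lists together. The 7 structural genes of complex IV among the 40 genes gave no call. *MAM33* (YIL070C), for an acidic matrix protein that takes part in the translation of mitochondrial transcripts, had the largest rise, 0.97 (-1.40, -1.38 and -1.49 against -0.31, -0.37 and -0.69, adjusted p = 3.93e-04, limma). *PET54* (YGR222W) and *PET309* (YLR067C), which act on the expression of mitochondrially encoded subunits of the complex, rose by 0.56 and 0.46 (adjusted p = 6.32e-04 and 0.00188). *COX15* (YER141W), for heme a synthesis, and *OMA1* (YKR087C), for a protease of the inner membrane, fell by 0.33 and by 0.46 on the log2 scale. The lists for complexes II and III and the ATP synthase had 1 of 6, 2 of 13 and 2 of 13 genes higher and 0 lower. These shares, 16.7%, 15.4% and 15.4%, are near the 16.5% of all genes and are no result about the lists. Their largest rises were 0.36 for *FLX1* (YIL134W), a mitochondrial flavin carrier, 0.47 for *MZM1* (YDR493W), an assembly factor of the Rieske protein, and 0.84 for *NCA3* (YJL116C), linked to the expression of mitochondrially encoded subunits of the ATP synthase. *CBS2*, for a translational activator of cytochrome b, had 0.36 (adjusted p = 0.0101) and *FMC1*, for an F1 assembly factor, had 0.29 (adjusted p = 0.0241). Of the 11 genes of ubiquinone synthesis 2 were higher, *COQ11* (0.40) and *CAT5* (0.36), and 0 lower, and this share of 18.2% is again near that of all genes.

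The regulators gave 1 gene higher and 2 lower among 16, or 6.25% and 12.5%, against 16.5% and 13.1% of all genes. *HAP4* (YKL109W), the activating and regulated subunit of the Hap complex, gave 2.17, 2.17 and 2.32 in YΔG/XK/XI and 2.75, 2.76 and 2.79 in YΔGP/XK/XI. It rose 1.46-fold (log2 fold change 0.55, standard error 0.07, adjusted p = 0.00121, limma), with arrays well apart. *HAP2* (YGL237C), for a DNA-binding subunit of the complex, fell by 0.30 on the log2 scale (-0.61, -0.62 and -0.68 against -0.97, -1.02 and -0.83, adjusted p = 0.0195). *HAP3* and *HAP5* had -0.01 and -0.09 and did not pass. *RTG1* (YOL067C), for a subunit of the factor that acts in retrograde signalling from mitochondria to the nucleus, fell by 0.58 (adjusted p = 0.00156). Among the carriers *AAC1* (YMR056C), for a minor ADP/ATP carrier, fell by 0.40 (adjusted p = 0.0114) and *SAL1*, for an ATP-Mg/phosphate carrier, by 0.30 (adjusted p = 0.0154), while *PET9*, for the main ADP/ATP carrier, had 0.17 (adjusted p = 0.176).

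**Figure D4:**
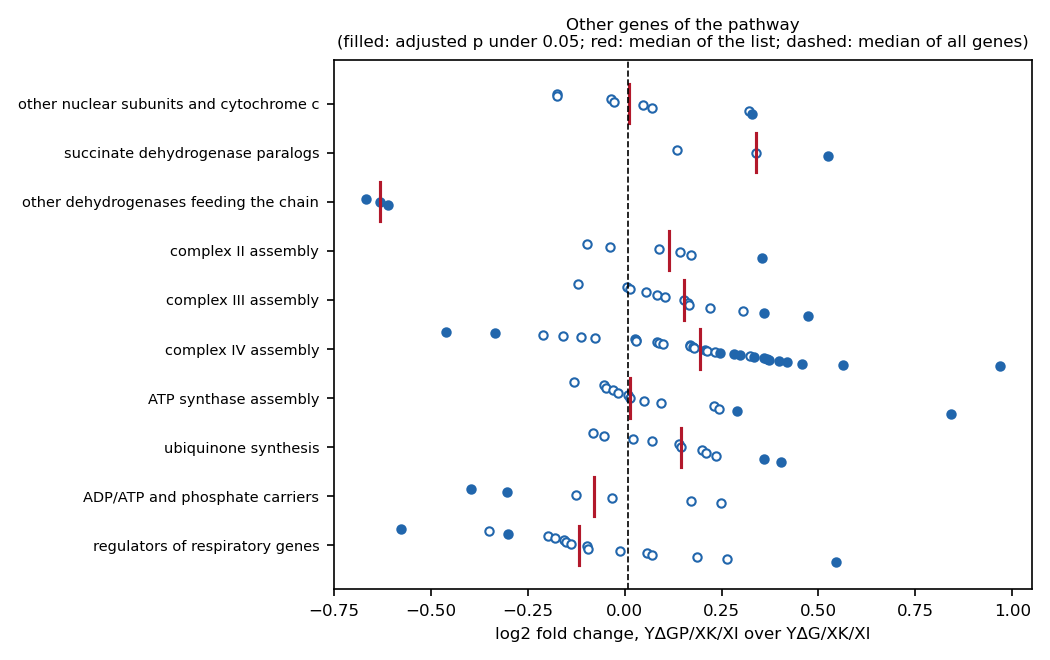
Log2 fold change of YΔGP/XK/XI over YΔG/XK/XI (x axis) for the listed genes of the pathway other than the 40 described, by list (y axis), without the mitochondrially encoded subunits. Each point is 1 gene, filled where the adjusted p was under 0.05. Red lines are the medians of the lists and the dashed line is the median of all genes. The 3 dehydrogenases lie near -0.63. Of the 32 genes for complex IV assembly 13 (40.6%) are filled above 0, beside 16.5% of all genes.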

How the data were processed

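Each sample was hybridized to 1 single-colour Agilent yeast array. The authors deposited spot intensities after background subtraction, written by Agilent Feature Extraction 10.1.1.1 with no scaling between arrays, and a table of log2 values, which matched the 75th percentile scaling here with each probe centred over the arrays (r of 0.9999 or above). Control spots and spots flagged as outliers were left out, the 7 spots of a probe were averaged as log2 values, and each array was scaled by subtracting its own 75th percentile. A probe was well above background where at least 4 spots carried that flag. Dim spots have less reliable ratios after background subtraction. The comparison used lmFit and eBayes of limma 3.58.1 (R 4.3.3), adjusted over all 6256 genes by Benjamini-Hochberg, after a test on simulated data. The methods name no test. The *PHO13* bound sets the YΔG/XK/XI mean against the higher of the probe's signal and the lowest signal well above background.

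Array names are systematic names, and 5756 of 6256 were found in the R64 gene table, which served for symbols alone. The genes and pathway lists were chosen with earlier results of these data known. All 40 genes are named, and of each pathway list up to 3 called genes of largest change per direction. *SHH3*, *SHH4*, *COX5A*, *COX5B*, *CYC1*, *CYC7*, *HAP3*, *HAP5* and *PET9* were added after their values were seen, as partners of genes named by that rule. Alternatives were the background correction, scaling, dim-probe filter, spot handling, variance model, blocks for replicate number and slide, single slides, the deposited table, and each array left out. Protein and promoter sequences were not used here.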

Additional observations from a re-analysis of the deposited data

How the results depend on the processing

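The 10 genes that passed kept their direction in all 18 alternative fits, and 5 of them, *NDE1*, *NDE2*, *SDH2*, *ATP7* and *ATP19*, passed in each. The 8 higher genes became 5 with median scaling and 5 with scaling to the genes outside the group, in both cases with 2 in place of 4 in the ATP synthase. The slide as a block gave 7 there. The slide 1 arrays alone gave 1 lower gene in place of 2, with 0 in complex III, and 5 lower genes in the pathway lists in place of 9. On slide 2 the median log2 fold change was 0.184 in complex II and 0.086 in the ATP synthase, against 0.31 and 0.18 over all arrays. Deviations of same-numbered arrays correlated with r of 0.0656, 0.301 and 0.415 over all genes. Replicate 1 of YΔGP/XK/XI correlated best with replicate 2 of YΔG/XK/XI (0.130), also on slide 1, so the numbers were not taken as pairs. Pairs on the same slide had r from -0.0019 to 0.415, and pairs on different slides from -0.481 to -0.060. The main fit had no block for the slide. With that block 2301 genes were called, and among the 40 genes 11 were higher and 2 lower. With the replicate block 2362 genes were called against 1852, among the 40 genes 10 higher in place of 8 and 2 lower, with *TIM11* (adjusted p = 0.0381, limma) and *STF2* (0.0476) added.

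With an array left out, 1178 to 1661 genes were called in all, 4 to 10 of the 40 higher and 1 lower. These were 1 to 3 higher in complex II, 0 to 1 in complex IV, 2 to 6 in the ATP synthase and 0 lower in complex III, and the pathway lists had 13 to 24 higher and 5 to 10 lower. The 1178 genes were those without replicate 1 of YΔG/XK/XI.

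Over the 18 alternative fits a change of sign occurred in 10 genes, none of them called. On slide 2, which allows no test, *SDH1* (-0.01), *QCR10* (-0.0045) and *ATP5* (-0.09) lay below 0 as well. With normexp *RIP1* had -0.016 and *ATP2* -0.0093. With quantile normalization *RIP1* had -0.020, *ATP1* 0.092 and *ATP4* -0.0087. With median scaling *QCR2* had -0.015, *RIP1* -0.056, *COX12* -0.037, *ATP2* -0.054, *ATP4* -0.045 and *ATP17* -0.031. With scaling to the other genes these were -0.013, -0.054, -0.035, -0.052, -0.043 and -0.028. On slide 1 *RIP1* had -0.021 and *ATP1* 0.086. With an array left out *NDI1* ranged from -0.12 to 0.039, *QCR2* from -0.032 to 0.15, *RIP1* from -0.026 to 0.056, *QCR6* from -0.020 to 0.21, *QCR9* from -0.13 to 0.0062, *COX12* from -0.049 to 0.12, *ATP1* from -0.065 to 0.059, *ATP2* from -0.074 to 0.097, *ATP4* from -0.041 to 0.079 and *ATP17* from -0.036 to 0.11. The cause was not tested. The share of called genes that were higher was 55.8%, but 42.9% with median scaling and 47.9% with quantile normalization.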
